A study of Homo sapiens with 9 samples.

Results

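Transcripts of the insulin-like growth factor (IGF) system were measured in TE13 cells, an established human esophageal squamous cell carcinoma line, after siRNA knockdown of the long non-coding RNA PARylator (LINC00885). The set held 10 of the 60605 genes in the table: the IGF-binding proteins IGFBP2, IGFBP3, IGFBP4, IGFBP5, IGFBP6 and IGFBP7, the receptors IGF1R, IGF2R and INSR, and the adaptor IRS1. Members were chosen by gene symbol, and mean FPKM (fragments per kilobase of exon scaled to library size) was to choose between entries that shared a symbol. Each symbol had 1 entry, so FPKM did not have to choose between entries. The 9 libraries fell into 3 groups of 3, namely TE13 cells under control siRNA, with PARylator siRNA.1 and with PARylator siRNA.2. The knockdown was transient, all 3 groups came from 1 cell line, and the hours between transfection and RNA extraction are not given in the sources used here. The libraries of a condition are described as biological replicates in the labels and as experimental repeats in the study's account, and neither says whether they came from separate cultures, so p-values measure only the spread between these samples. Poly(A)+ RNA was sequenced.

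IGF1 and IGF2 are secreted peptides that activate IGF1R, a receptor tyrosine kinase at the cell surface, while insulin mainly activates the related INSR. IGF-binding proteins are secreted carriers that hold the peptides outside the cell, prolong their life and in most settings keep them from the receptor, and proteases such as PAPPA release the peptides again. IGF2R, the cation-independent mannose 6-phosphate receptor, carries IGF2 to the lysosome for degradation and sorts lysosomal enzymes, and IRS1 passes the signal of the active receptors to PI3-kinase and AKT.

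Total counts were 15337917 to 17899074 per library under control siRNA, 15374616 to 17762752 under siRNA.1 and 19213164 to 22559998 under siRNA.2. Counts of LINC00885 were 6, 7 and 12 under control siRNA, 4, 5 and 2 under siRNA.1, and 2, 0 and 4 under siRNA.2. The edgeR log2 fold changes of this RNA were -1.21 (adjusted p = 0.376) and -2.33 (adjusted p = 0.0659), so its reduction did not pass the test at this depth. The study itself measured its siRNA knockdown by qPCR, with TE13 among the cell lines, and reported a reduction. Of 10 epithelial markers, 10 were above 1 FPKM in each group, and their summed level was 1015 to 1028 FPKM under control siRNA, 817 to 844 under siRNA.1 and 804 to 823 under siRNA.2. Summed levels of 10 fibroblast markers stayed between 1.51 and 2.52 FPKM, of 6 endothelial markers between 0.50 and 1.56 FPKM, and of 10 blood cell markers between 5.54 and 8.81 FPKM (5.54 to 6.63 under control siRNA, 7.89 to 8.81 under siRNA.1 and 7.41 to 8.73 under siRNA.2). The part of these shifts in the results on the IGF system was not tested. In these bulk libraries, fewer cells that hold a transcript and less of it per cell cannot be told apart.

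The promoter stretches of 2 members are shown because these genes had the largest changes that differed between the siRNAs. They come from RefSeq (GRCh38.p14), run 5′ to 3′ on the gene's strand, and cover 250 bases before to 50 bases after the annotated start. The IGFBP6 stretch lies at chr12:53097417-53097716 on the plus strand and the IRS1 stretch at chr2:226799771-226800070 on the minus strand, and the GENCODE gene model of IGFBP6 starts within its stretch. Capitals mark the letters GGGCGG, the core of a GC box, and GTAAACA, the core recognised by forkhead factors of the FOXO group.
IGFBP6 promoter: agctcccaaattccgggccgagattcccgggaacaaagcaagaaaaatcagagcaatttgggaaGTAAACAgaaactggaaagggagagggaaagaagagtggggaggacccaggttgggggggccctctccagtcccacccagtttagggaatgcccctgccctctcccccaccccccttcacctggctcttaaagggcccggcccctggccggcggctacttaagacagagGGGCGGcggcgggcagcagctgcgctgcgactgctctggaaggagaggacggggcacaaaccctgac
IRS1 promoter: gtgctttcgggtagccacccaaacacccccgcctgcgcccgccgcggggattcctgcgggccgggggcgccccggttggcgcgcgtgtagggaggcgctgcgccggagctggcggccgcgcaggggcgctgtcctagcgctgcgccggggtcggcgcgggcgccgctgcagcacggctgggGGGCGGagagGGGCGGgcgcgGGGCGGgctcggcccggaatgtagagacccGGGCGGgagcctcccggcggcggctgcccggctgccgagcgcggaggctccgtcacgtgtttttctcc

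The table of promoters held 9 of the 10 members, IGFBP7 being the other one. Searched on both strands, GGGCGG occurred in a promoter of 8 of the 9, all but IGFBP5, and in 45.0% of the 35116 promoters of the same length. The 9 genes had 11 promoters and counted if any held the letters, while the share counts single promoters. The GC content of the member promoters ran from 55.3% to 79.7%, and the median of all promoters was 58.7%. TATAAA occurred in IGFBP4 and in 11.5% of promoters, and GTAAACA in IGFBP6 and in 3.42%. In IGFBP6, GTAAACA began at base -186 and GGGCGG at base -17 relative to the annotated start. By contrast, the IRS1 stretch, with a GC content of 79.3% against 61.7% in IGFBP6, held GGGCGG at 4 places. A match in these windows is a description of letters only.

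The level of the members under control siRNA spanned from the top of the transcriptome to no reads. IGFBP6 averaged 77.2 ± 3.85 FPKM (SD, n = 3), above 98.4% of the 28065 genes with a mean above 0 FPKM under control siRNA. IGFBP4 at 68.5 ± 4.85 FPKM and IGFBP3 at 22.2 ± 0.774 FPKM followed. IGFBP7 (11.4 ± 0.875 FPKM) and IGF2R (10.3 ± 0.697 FPKM) came next, and the ranges of these neighbours overlapped. IGF1R (8.65 ± 0.340 FPKM), IRS1 (1.55 ± 0.110 FPKM) and INSR (1.27 ± 0.117 FPKM) followed, each below its neighbour in every library. IGFBP2 averaged 0.04 FPKM, and IGFBP5 was listed at 0. The peptides themselves were near or at the floor. INS had 0 counts in each of the 9 libraries, IGF1 had 3 counts in 1 siRNA.2 library and 0 elsewhere, and IGF2 had 3, 9 and 5 counts under control siRNA, 0, 0 and 2 under siRNA.1, and 0, 2 and 6 under siRNA.2.

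The first question was whether either knockdown changed these transcripts. The 4 binding protein genes that TE13 cells expressed in quantity, IGFBP3, IGFBP4, IGFBP6 and IGFBP7, were higher under both siRNAs, by 1.23-fold to 3.48-fold, and IGFBP6 rose most. Beyond these, IGF1R was higher under siRNA.1 and IRS1 under siRNA.2, whereas IGF2R and INSR were called with neither. IGFBP2 and IGFBP5 averaged under 0.1 FPKM over the 9 libraries and were not tested, which left 8 members among the 21395 genes tested. Under siRNA.1, 5 of the 8 passed as higher and 0 as lower (adjusted p below 0.05, edgeR quasi-likelihood test, Benjamini-Hochberg over all genes tested). Over all genes tested, 30.3% passed in either direction and 15.0% were higher. Under siRNA.2, 5 of the 8 were higher and 0 lower, where 30.9% of all genes passed and 15.8% were higher. These shares, also used for the gene lists below, include genes of low level, while all 8 tested members averaged 1.4 FPKM or more. With the filter at 1 FPKM, which 12532 genes met, 5819 passed under siRNA.1 (2866 higher) and 5913 under siRNA.2 (2927 higher). Those are larger shares than over all genes tested. The members higher with both siRNAs numbered 4 of 8, against 11.1% of all genes, and the siRNAs were compared with the same 3 control libraries. The members were picked with earlier results of these data known, so these shares are no test of the set. The median log2 fold change of the 8 members was 0.31 under siRNA.1 and 0.35 under siRNA.2, and that of all genes tested was -0.00 and 0.00.

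Every siRNA.1 library lay above every control library for 5 of the 8 members, as it did for 21.0% of all genes tested, and under siRNA.2 this held for 6 of the 8, against 21.3% of all genes. Between the siRNAs, 1 member was higher under siRNA.2 (IRS1) and 2 were lower (IGFBP6 and IGF1R), and of all genes tested 12.2% passed in either direction and 6.10% were higher under siRNA.2.

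**Figure D1:**
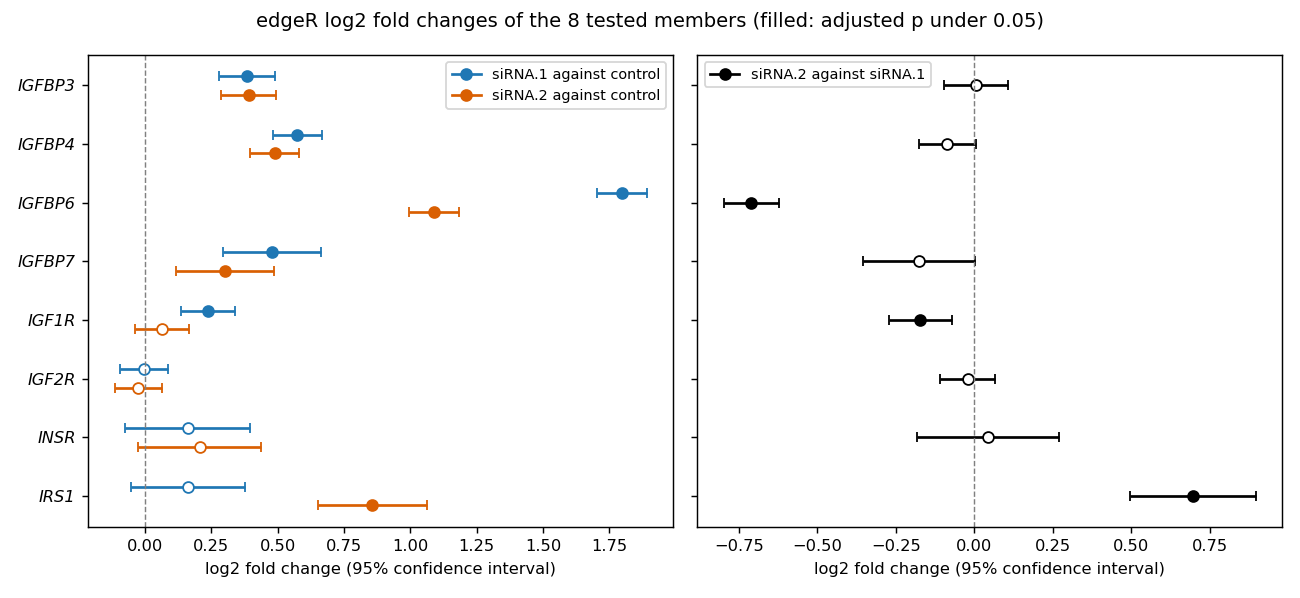
Log2 fold changes (horizontal axes) of the 8 tested members with 95% confidence intervals from edgeR, against control siRNA on the left (blue siRNA.1, orange siRNA.2) and siRNA.2 against siRNA.1 on the right; filled points have an adjusted p under 0.05. The 4 binding proteins lie right of 0 with both siRNAs, and IGFBP6 (-0.71) and IRS1 (0.70) lie farthest from 0 on the right.

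IGFBP6, a binding protein that prefers IGF2 over IGF1, is encoded at chr12:53097436-53102345 on the plus strand in 4 exons, with 723 coding bases. Its level was 72.8, 79.9 and 78.9 FPKM under control siRNA, 292, 261 and 269 FPKM under siRNA.1, and 166, 157 and 174 FPKM under siRNA.2. All 3 groups were apart, under siRNA.2 in between. The rise was 3.48-fold under siRNA.1 (95% confidence interval 3.26 to 3.71, log2 fold change 1.80, SE 0.047, edgeR F = 1434) and 2.13-fold under siRNA.2 (1.99 to 2.27, log2 fold change 1.09, adjusted p = 3.94e-114). By this measure IGFBP6 ranked number 846 from the top of the 21395 genes under siRNA.1 and 1529 under siRNA.2. The direct comparison gave a log2 fold change of -0.71 (SE 0.045, adjusted p = 2.67e-53, edgeR), a level in the siRNA.2 libraries of 0.612 times that under siRNA.1.

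IGFBP4, a carrier that mostly restrains IGF action until PAPPA cleaves it, is encoded at chr17:40443450-40457725 on the plus strand, in 4 exons of the only annotated transcript. It stood at 63.1, 69.9 and 72.5 FPKM under control siRNA, 106, 100.03 and 106 FPKM under siRNA.1, and 93.6, 102 and 95.1 FPKM under siRNA.2. Both knockdown groups were above the control libraries without overlap, and overlapped each other. IGFBP4 rose 1.49-fold under siRNA.1 (log2 fold change 0.58, SE 0.047, adjusted p = 5.21e-32, edgeR) and 1.40-fold under siRNA.2 (0.49, SE 0.047, adjusted p = 1.68e-23). The difference between siRNAs was -0.09 on the log2 scale, with a 95% interval of -0.18 to 0.00 (adjusted p = 0.270, edgeR).

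IGFBP3, the main carrier of IGFs in blood, is encoded at chr7:45912245-45921874 on the minus strand, 18584 bases from IGFBP1 with no gene in between. Libraries read 21.6, 22.0 and 23.1 FPKM under control siRNA, 30.4, 29.8 and 28.6 FPKM under siRNA.1, and 32.6, 26.6 and 28.9 FPKM under siRNA.2. The siRNA groups overlapped each other and lay above the control libraries. The log2 fold changes were 0.39 (SE 0.053, adjusted p = 1.09e-11, edgeR) and 0.39 (SE 0.053, adjusted p = 2.92e-12), or 1.31-fold with each siRNA. The interval of the difference between siRNAs was -0.10 to 0.11 on the log2 scale. Its neighbour IGFBP1, a liver and decidual carrier induced when insulin is low, had 0, 1 and 1 counts under control siRNA, 0, 2 and 0 under siRNA.1, and 7, 5 and 3 under siRNA.2.

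IGFBP7, a distant relative with weak affinity for IGFs, is encoded at chr4:57030773-57110385 on the minus strand. It measured 11.8, 12.0 and 10.4 FPKM under control siRNA, 17.0, 14.1 and 17.2 FPKM under siRNA.1, and 13.6, 13.3 and 15.3 FPKM under siRNA.2. Neither siRNA group overlapped the control libraries, although the highest control library and the lowest siRNA.2 library were close. The log2 fold change was 0.48 under siRNA.1 (SE 0.094, adjusted p = 3.77e-06, edgeR) and 0.30 under siRNA.2 (SE 0.094, adjusted p = 0.00576). The siRNA.2 call rested on single libraries. Without control replicate 3 it was 0.24 (adjusted p = 0.0772, edgeR), and without siRNA.2 replicate 3 it was 0.23 (adjusted p = 0.106, edgeR). Exons of IGFBP7 share 260 bases with POLR2B, a subunit of RNA polymerase II on the opposite strand. POLR2B was lower under each siRNA, with log2 fold changes of -0.49 and -0.31 (adjusted p = 8.27e-21 and 2.61e-09, edgeR). Whether counting used strand is not given in the sources used here, so reads in the shared bases cannot be told apart.

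IGFBP2 and IGFBP5 are neighbours on chromosome 2, on opposite strands with 7668 bases between them and no gene in that gap. IGFBP2, a carrier common in fetal tissue and in tumours, had 3, 1 and 6 counts under control siRNA, 5, 7 and 19 under siRNA.1, and 10, 12 and 13 under siRNA.2, which is at most 0.23 FPKM. The siRNA.2 libraries were all above the control libraries, and the siRNA.1 libraries overlapped them. Summed over libraries and set against total counts, the rate was 2.99 times that of control under siRNA.1 (exact 95% interval 1.43 to 6.84, from 31 and 10 counts) and 2.78 times under siRNA.2 (1.35 to 6.28, from 35 and 10 counts). These intervals cover counting error only, and single libraries weighed heavily. Without siRNA.1 replicate 3, which held 19 of the 31 counts, the siRNA.1 ratio was 1.77. Without control replicate 3 the ratios were 4.74 and 4.39. With no filter on low values, edgeR gave IGFBP2 adjusted p-values of 0.162 and 0.191. IGFBP5, a carrier bound to matrix, had 1, 0 and 1 counts under siRNA.2 and 0 counts in each of the other 6 libraries.

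Added up, the 6 binding protein genes reached 179 ± 8.68 FPKM under control siRNA (SD, n = 3), 424 ± 20.5 FPKM under siRNA.1 and 306 ± 6.83 FPKM under siRNA.2. The libraries of the 3 groups did not overlap in this sum, which ran from 169 to 185, from 405 to 445 and from 299 to 313 FPKM. IGFBP6 held 43.1% of the sum under control siRNA, 64.6% under siRNA.1 and 54.1% under siRNA.2, while the IGFBP4 share was 38.2%, 24.6% and 31.7%. Without IGFBP6 the sum was 102 FPKM under control siRNA, 150 FPKM under siRNA.1 and 141 FPKM under siRNA.2. Thus IGFBP4 and IGFBP3 became a smaller part of the binding protein transcripts although their own levels rose.

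IGF1R, the signalling receptor of both IGFs, is encoded at chr15:98648539-98964530 on the plus strand, in 21 exons of its canonical transcript. It was at 8.95, 8.28 and 8.72 FPKM under control siRNA, 10.1, 10.4 and 10.7 FPKM under siRNA.1, and 9.79, 8.61 and 8.99 FPKM under siRNA.2. The siRNA.1 libraries were above all others, and the siRNA.2 libraries overlapped the control libraries. The log2 fold change was 0.24 under siRNA.1 (SE 0.052, adjusted p = 4.06e-05, edgeR) and 0.07 under siRNA.2 (95% interval -0.04 to 0.17, adjusted p = 0.385). The siRNAs differed by -0.17 (SE 0.051, adjusted p = 0.0102, edgeR). That call was lost with limma on log2(FPKM + 0.1) and log2(FPKM + 1) (adjusted p = 0.0917 and 0.0904). It was also lost without siRNA.1 replicate 3, siRNA.2 replicate 2 or siRNA.2 replicate 3 (adjusted p = 0.0894, 0.138 and 0.0572, edgeR).

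INSR, the insulin receptor, is encoded at chr19:7112255-7294414 on the minus strand in 22 exons, and was the lowest of the receptors. Its level was 1.40, 1.25 and 1.17 FPKM under control siRNA, 1.44, 1.51 and 1.40 FPKM under siRNA.1, and 1.44, 1.58 and 1.41 FPKM under siRNA.2. The siRNA.2 libraries did not overlap the control libraries, and the siRNA.1 libraries overlapped them, since siRNA.1 replicate 3 and control replicate 1 were both 1.40 FPKM to 2 decimals. The log2 fold changes were 0.16 (SE 0.120, 95% interval -0.07 to 0.40, adjusted p = 0.344, edgeR) and 0.21 (SE 0.118, -0.02 to 0.44, adjusted p = 0.192). IGF1R was 6.82 ± 0.557 times as high as INSR in FPKM under control siRNA (SD, n = 3), 7.18 ± 0.377 times under siRNA.1 and 6.21 ± 0.690 times under siRNA.2, and the ranges of these ratios overlapped.

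IGF2R is encoded at chr6:159969082-160113507 on the plus strand in 48 exons. It read 10.9, 9.53 and 10.4 FPKM under control siRNA, 9.78, 11.0 and 10.7 FPKM under siRNA.1, and 10.3, 10.1 and 10.2 FPKM under siRNA.2. The groups overlapped throughout. The log2 fold change was -0.00 under siRNA.1 (95% interval -0.09 to 0.09, adjusted p = 0.984, edgeR) and -0.02 under siRNA.2 (-0.11 to 0.06, adjusted p = 0.760). The sign of the siRNA.1 value depended on the scaling of the libraries. Relative to IGF1R, IGF2R was 1.19 ± 0.034 under control siRNA, 1.01 ± 0.043 under siRNA.1 and 1.12 ± 0.059 under siRNA.2 (ratio of FPKM, SD, n = 3).

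IRS1 is encoded at chr2:226731312-226799820 on the minus strand in 2 exons, with 3729 coding bases. It measured 1.59, 1.64 and 1.43 FPKM under control siRNA, 1.83, 1.88 and 1.60 FPKM under siRNA.1, and 3.03, 2.86 and 2.61 FPKM under siRNA.2. The siRNA.2 libraries were above all others, and the siRNA.1 and control libraries overlapped. IRS1 rose 1.81-fold under siRNA.2 (95% interval 1.57 to 2.09, log2 fold change 0.86, SE 0.104, adjusted p = 5.19e-15, edgeR). Under siRNA.1 the log2 fold change was 0.16 (-0.05 to 0.38, adjusted p = 0.293, edgeR). The siRNAs differed by 0.70 (SE 0.102, adjusted p = 9.11e-10, edgeR). IRS1 relative to INSR was 1.22 ± 0.088 under control siRNA, 1.22 ± 0.068 under siRNA.1 and 1.92 ± 0.159 under siRNA.2 (ratio of FPKM, SD, n = 3). IRS2, the other main adaptor, had log2 fold changes of 0.09 (adjusted p = 0.495, edgeR) and -0.02 (adjusted p = 0.895).

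Genes that set how much IGF is free were described next. Of 14 genes for the peptides, further carriers and proteases, 8 were tested, and 3 were higher and 1 lower under siRNA.1, and 2 higher and 0 lower under siRNA.2, beside 30.3% and 30.9% of all genes tested called in either direction. STC2, an inhibitor of PAPPA, rose from 27.8 ± 0.495 to 51.1 ± 2.20 FPKM under siRNA.1 and to 48.4 FPKM under siRNA.2 (log2 fold change 0.85 and 0.79, adjusted p = 5.34e-71 and 2.58e-61, edgeR). PAPPA, the protease that cleaves IGFBP4, was the other gene higher with both. It was named after its values were seen and stayed low, at 0.08 FPKM under control siRNA, 0.207 under siRNA.1 and 0.323 under siRNA.2 (log2 fold change 1.35 and 2.02, adjusted p = 0.000263 and 1.46e-09, edgeR). FURIN, which cleaves the precursors of IGF1R and INSR, was also named after its values were seen and was higher under siRNA.1 alone. Its log2 fold change was 0.39 under siRNA.1 (adjusted p = 3.53e-13, edgeR) and 0.01 under siRNA.2, with a tested difference of -0.38 (adjusted p = 3.26e-12). The gene that fell under siRNA.1 was IDE, the insulin-degrading enzyme, named likewise (-0.21, adjusted p = 0.00394, edgeR). Under siRNA.2 it was at -0.11 (adjusted p = 0.169).

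Downstream of the receptors, 36 of 38 listed signalling genes were tested. Under siRNA.1, 7 were higher and 12 lower, and under siRNA.2, 8 were higher and 12 lower, beside 30.3% and 30.9% of all genes tested called in either direction. Across the alternative settings, 6 to 9 were higher and 9 to 13 lower under siRNA.1, and 6 to 8 higher and 9 to 14 lower under siRNA.2. The median log2 fold change was -0.11 and -0.05, and that of all genes -0.00 and 0.00. TRIB3, a pseudokinase that binds AKT, had log2 fold changes of 0.85 under siRNA.1 and 0.58 under siRNA.2, and GRB10, an adaptor that restrains both receptors, had 0.68 and 0.67. RICTOR, the core of mTOR complex 2, rose by 0.39 and 0.42, while PIK3CB, a catalytic subunit of PI3-kinase, was lower (-0.67 and -0.23). All 4 passed the edgeR test with each siRNA.

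**Figure D2:**
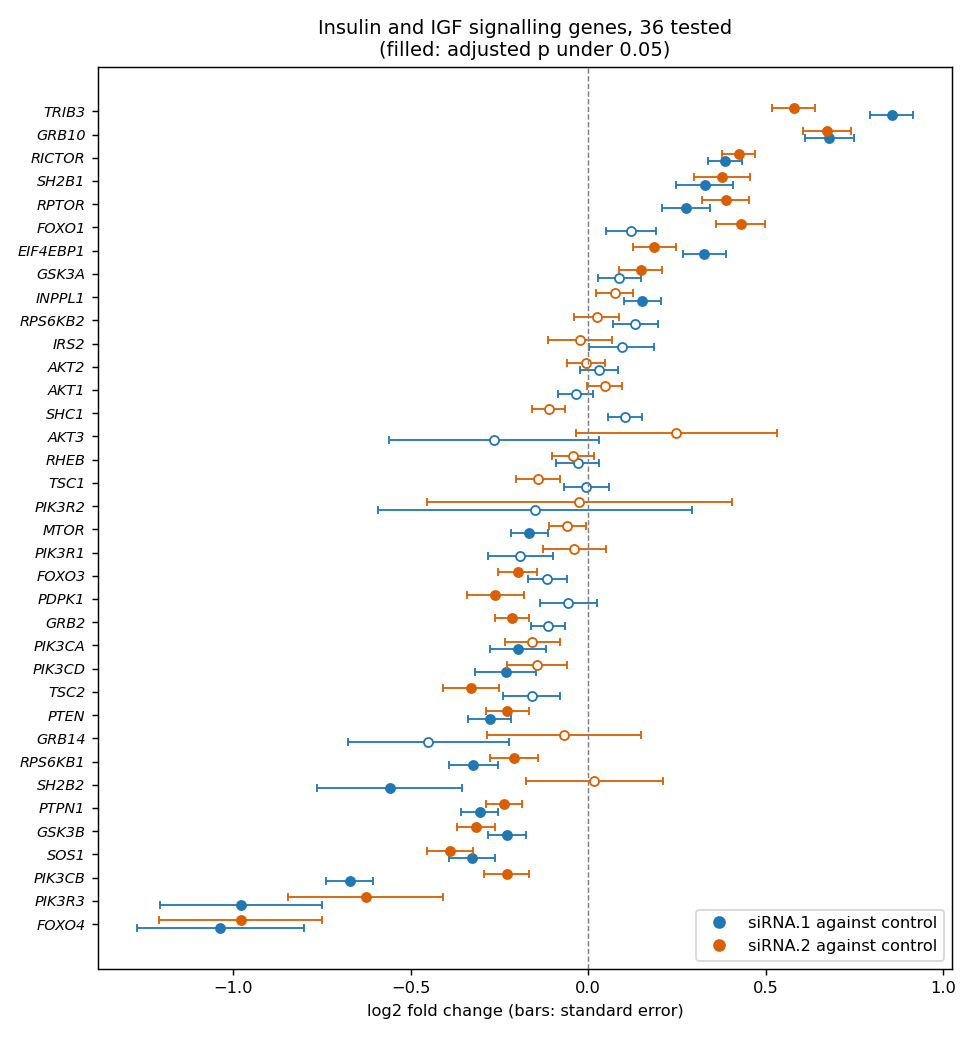
Log2 fold changes (horizontal axis) with SE of the 36 tested insulin and IGF signalling genes under siRNA.1 (blue) and siRNA.2 (orange) against control siRNA, sorted by their mean; filled points have an adjusted p under 0.05. TRIB3 and GRB10 lie at the top. Under siRNA.1, 7 genes are higher and 12 lower, and under siRNA.2, 8 are higher and 12 lower. Of all genes tested, 30.3% and 30.9% were called in either direction.

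For IGF2R the related list was that of mannose 6-phosphate sorting, with 16 of 16 genes tested. Under siRNA.1, 2 were higher and 5 lower, and under siRNA.2, 4 were higher and 4 lower, again beside 30.3% and 30.9% of all genes called. The lysosomal protease CTSL had log2 fold changes of 0.52 and 0.58, while CTSD (-0.35 and -0.49), CTSB (-0.24 and -0.44) and the mannosidase MAN2B1 (-0.42 and -0.40) were lower with both. The 3 IGF2 mRNA-binding proteins, which bind RNA and are unrelated to the secreted carriers, were higher with both siRNAs, led by IGF2BP3 (0.55 and 0.39), where 11.1% of all genes tested were higher with both. Under some of the alternative settings 2 of the 3 were called with an siRNA.

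The genes whose log2 normalized counts (edgeR) over the 9 libraries followed IGFBP6 most closely, among 12532 genes averaging 1 FPKM or more, were MAPKAPK5 and UPP1 (Pearson r = 0.995 each), ODC1 (0.993), and PARP10 and HDAC9 (0.992 each). The correlation is a description, since the 9 points share 3 conditions. ODC1, the first enzyme of polyamine synthesis, averaged 30.1 FPKM under control siRNA, 60.0 under siRNA.1 and 44.2 under siRNA.2. UPP1, a uridine phosphorylase, averaged 32.4, 63.3 and 48.4 FPKM. The siRNA.2 group lay between the other groups for both. These genes were chosen by their correlation with IGFBP6, which favours that order, so it adds nothing to the IGFBP6 result.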

How the data were processed

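The authors sequenced poly(A)+ RNA on an Illumina NovaSeq and deposited, for each gene and library, raw counts (STAR alignment and featureCounts on GRCh38, per the study's methods and the submitters' notes) and FPKM values that the authors computed from these counts. FPKM recomputed here from counts, totals and exonic length differed by at most 0.005. The versions of these tools are not given in the sources used here.

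Counts were tested with edgeR 4.0.16 in R 4.3.3 (TMM scaling, quasi-likelihood test, all 9 libraries in 1 fit, Benjamini-Hochberg adjustment over 21395 of 60605 genes averaging 0.1 FPKM or more, threshold 0.05), after a test on simulated data. The common biological coefficient of variation was 0.0566. IGFBP2 and IGFBP5 fell below the filter. Alternatives were DESeq2 1.42.0, limma 3.58.1 on log2(FPKM + 0.1) or log2(FPKM + 1), other scalings, filters, a replicate block and leaving out each library. Levels are FPKM, which are per length, and fold changes come from counts. Replicates of a group differed by more than counting noise (chi-square per degree of freedom 2.76 to 4.62). Gene positions and exons come from GENCODE 44 and match the deposited starts and ends.

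The members and gene lists were chosen with earlier results of these data known. All 10 members are named. From each list, up to 4 genes are named, those with the largest mean log2 fold change among genes called the same way with both siRNAs and at least 1 FPKM, plus IGF1, IGF2, INS, IRS2, IGFBP1 and LINC00885, and the 5 genes most like the member that changed most. PAPPA, FURIN, IDE, FOXO1, FOXO3 and FOXO4 were named outside this rule after their values were seen, and POLR2B because it overlaps IGFBP7.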

Additional observations from a re-analysis of the deposited data

Results flagged for a closer look

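For 3 of the 8 tested members the siRNAs differed when they were tested directly against each other (siRNA.2 against siRNA.1, edgeR). Of all genes tested, 12.2% passed in either direction. The log2 difference was -0.71 for IGFBP6 (adjusted p = 2.67e-53), which was higher than control with both siRNAs in 6 of 6 libraries. For IRS1 it was 0.70 (adjusted p = 9.11e-10), with all 3 siRNA.2 libraries above the other 6. For IGF1R it was -0.17 (adjusted p = 0.0102), with all 3 siRNA.1 libraries above the other 6. The IGF1R call was less firm, being lost with both limma settings and without siRNA.1 replicate 3, siRNA.2 replicate 2 or siRNA.2 replicate 3. The cause of these differences was not tested. Counts of the targeted RNA, at most 12 in a library, were too few to tell the extent of knockdown of the siRNAs apart (log2 difference -1.13, adjusted p = 0.624, edgeR).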

How the results depend on the processing

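Over the 8 tested members, 3 comparisons and 18 alternative settings, 407 of 432 values kept their direction and their side of the threshold. The 7 that lost their call were IGFBP7 under siRNA.2 (2 settings) and IGF1R between the siRNAs (5 settings), with values given beside those results. The number of members called against control was 5 with each siRNA under every scaling, filter and tool run.

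The 18 values that changed sign were all close to 0 and not called. For IGF2R under siRNA.1 they were 0.0248 with library totals alone, 0.0040 with no filter, and 0.0258 and 0.0237 with limma on log2(FPKM + 0.1) and log2(FPKM + 1), with -0.0557 to 0.0409 when leaving out each library. Under siRNA.2, IGF2R ranged from -0.0779 to 0.0192 on leaving out each library. For IGFBP3 between the siRNAs they were -0.0043 with RLE size factors, -0.0092 with library totals alone, -0.0020 with the filter set at 1 FPKM, -0.0043 with DESeq2, and -0.0140 and -0.0134 with limma, with -0.0619 to 0.0651 when leaving out each library. IGF2R and INSR between the siRNAs ranged from -0.0650 to 0.0064 and from -0.0121 to 0.0726 when leaving out each library.

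Over all genes, leaving out each library gave 5615 to 6502 calls under siRNA.1, 5692 to 6713 under siRNA.2 and 1908 to 2696 between the siRNAs. Between the siRNAs the limma settings called 1437 and 1414 genes against 2603 with edgeR. The cause was not tested. Same-numbered replicates showed no shared deviation (9 correlations between -0.19 and 0.11 over 11156 genes, 1 of them above 0.1). Deviations were taken from the mean of each group, which constrains these correlations, so they cannot exclude a pairing by number. With the replicate block, 6215, 6359 and 2342 genes passed, and no call of a member changed.

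Depth limits IGFBP2, IGFBP5, IGFBP1 and the IGF peptides, whose counts stayed below 20 in every library. Replication is 3 libraries a group of 1 cell line, with 2 siRNAs that share their controls. Protein, secretion and receptor activity were not measured in these libraries.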

Other observations

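Of 16 FOXO target genes, a group that growth factor signalling through AKT holds down, 11 were tested. Under siRNA.1, 3 were higher and 2 lower, and under siRNA.2, 3 were higher and 3 lower, against a share of 30.3% and 30.9% of all genes called. TXNIP, an inhibitor of glucose uptake, rose from 34.8 FPKM to 73.0 under siRNA.1 and 58.6 under siRNA.2 (log2 fold change 1.04 and 0.74), and BCL2L11, a pro-apoptotic BH3-only gene, by 0.60 and 0.30. TRIB1 rose by 0.36 and 0.46, while the atypical cyclin CCNG2 fell from 2.88 FPKM to 1.00 and 0.937 (-1.55 and -1.64). Of the forkhead factors themselves, named after their values were seen, FOXO1 was higher under siRNA.2 (0.43, adjusted p = 6.52e-09, edgeR) and not called under siRNA.1 (0.12, adjusted p = 0.206). By contrast, FOXO3 was lower under siRNA.2 (-0.20, adjusted p = 0.00152, edgeR) and not called under siRNA.1 (-0.12, adjusted p = 0.106). FOXO4 was lower with both (-1.04 and -0.98). IRS2, which is also on this list, was called with neither.

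Among the cell type markers, epithelial genes moved in both directions. KRT5, a basal keratin (log2 fold change -1.86 and -1.36), and SFN (-0.79 and -0.75) were lower, whereas KRT6A (0.34 and 0.58) and EPCAM (0.44 and 0.45) were higher, with 3 of 10 higher and 5 of 10 lower for each siRNA, beside 30.3% and 30.9% of all genes called in either direction. Of 2 fibroblast markers tested, 1 was lower with each siRNA (COL1A1, -0.55 and -0.52). Both tested endothelial markers, averaging under 1 FPKM in each group, were lower. Across the alternative settings, 1 to 2 of the fibroblast and 0 to 2 of the endothelial markers were lower with each siRNA. Of 6 blood cell markers tested, 4 were higher and 1 lower with each siRNA, and 1 to 4 were higher across the alternative settings. LYZ went from 0.317 FPKM to 2.79 and 3.08 (log2 fold change 3.08 and 3.24), while LAPTM5, the most abundant of them under control siRNA, went from 4.95 FPKM to 3.00 and 2.40 (-0.75 and -1.06). The part of these markers in the IGF results was not tested.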
